A study of Mus musculus with 16 samples.

Results

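The islands of chromosomes 1 and 15 were taken from 13 lists of chromatin immunoprecipitation and sequencing (ChIP-seq) islands, the genomic stretches in which an antibody recovered more reads than background. They number 31169 of 213103 islands, with 21496 on chromosome 1 and 9673 on chromosome 15. Both chromosomes had been picked out by measured values of these lists, namely the density of reads in the islands of Setd5+/- relative to wild-type cells. The genotype values below therefore describe the 2 chromosomes and test nothing. Another 153747 islands lie on the 16 autosomes other than 1, 4 and 15, which served as the reference.

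The study asked how SETD5, a chromatin protein that the series title calls a methyltransferase of lysine 36 of histone H3, shapes histone marks in neural stem cells. The cells came from mouse embryos at E14.5. Their telencephalic cortex was grown into neurospheres, and the stem cells, spread on Matrigel, were crosslinked in 1% formaldehyde. Wild-type cells and Setd5+/- cells, which carry 1 intact and 1 disrupted copy of Setd5, gave 1 library each for H3K4me3, H3K27ac, H3K4me1, H3K27me3, H3K36me2 and H3K36me3. A further library holds V5-tagged SETD5 in wild-type cells, and 3 input libraries were not analysed here. No group has a replicate, and the labels do not say how many embryos or cultures stand behind a library, so genotype and culture cannot be told apart and no p-value is given.

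The 6 marks divide the chromatin of a gene between them. H3K4me3 and H3K27ac sit at active promoters, and H3K27ac with H3K4me1 at active enhancers. H3K27me3 is laid down by Polycomb complexes over silent developmental genes. H3K36me3 covers the bodies of transcribed genes, and H3K36me2 forms broad domains within and between genes. A library counts fragments from every copy of a locus, so its reads scale with the number of copies of a chromosome in the culture as well as with the mark on each copy. In a bulk library these cannot be told apart: more cells with an extra copy, more copies per cell and more mark per copy all give more reads.

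A library had between 1019278 and 5093126 reads inside its islands, and the total depth of the libraries is unknown. Of 12 marker genes of neural stem cells and radial glia, 11 had an H3K4me3 island at a gene end in both genotypes and 1, Pax6, had none. H3K27ac lay at 10 of the 12 and at 0 of 6 neuronal, 0 of 6 microglial and blood and 0 of 6 endothelial and mesenchymal genes in both genotypes, and at 1 of 6 oligodendrocyte genes. H3K4me3 lay at 3 of 6, 1 of 6, 2 of 6 and 2 of 6 genes of these 4 lists in both genotypes. Setd5 itself, at chr6:113077262-113153432, kept H3K4me3 at its ends with 999 reads in wild type and 1191 in Setd5+/- cells, which does not check the genotype.

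Promoter sequences show the kinds of start site at which the Setd5+/- lists differed on these chromosomes. They are RefSeq windows of GRCm38.p6 from 250 bases before to 50 bases after a start, printed along the strand of the gene, with CG dinucleotides in capitals. En1 and Fbln1 lie under H3K4me3 islands that met no wild-type island, as does Olfr287 with few CG. The Hspd1 window lies between 2 wild-type islands that were 1 island in Setd5+/- cells, and H3f3a was marked in both genotypes.
En1, chr1:120602237-120602536, plus strand: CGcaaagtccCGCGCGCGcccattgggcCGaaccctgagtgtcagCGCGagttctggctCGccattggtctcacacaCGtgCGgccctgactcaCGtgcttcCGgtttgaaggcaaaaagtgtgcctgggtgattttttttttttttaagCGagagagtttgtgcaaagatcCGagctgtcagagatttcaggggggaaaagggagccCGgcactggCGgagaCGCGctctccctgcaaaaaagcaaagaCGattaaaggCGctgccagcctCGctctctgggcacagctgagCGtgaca
Fbln1, chr15:85205758-85206057, plus strand: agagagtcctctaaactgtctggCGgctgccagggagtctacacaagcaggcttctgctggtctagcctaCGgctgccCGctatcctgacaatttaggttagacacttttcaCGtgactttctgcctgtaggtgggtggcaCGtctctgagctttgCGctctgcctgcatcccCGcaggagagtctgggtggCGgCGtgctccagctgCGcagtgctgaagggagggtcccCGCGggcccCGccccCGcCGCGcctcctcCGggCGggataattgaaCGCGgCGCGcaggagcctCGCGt
Olfr287, chr15:98221007-98221306, minus strand: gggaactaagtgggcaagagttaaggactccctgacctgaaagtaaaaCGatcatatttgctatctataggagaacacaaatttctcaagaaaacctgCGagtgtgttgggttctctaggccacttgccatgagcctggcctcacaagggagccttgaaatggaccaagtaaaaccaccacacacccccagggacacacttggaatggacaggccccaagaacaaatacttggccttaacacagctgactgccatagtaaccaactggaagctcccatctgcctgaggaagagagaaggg
Hspd1, chr1:55087883-55088182, minus strand: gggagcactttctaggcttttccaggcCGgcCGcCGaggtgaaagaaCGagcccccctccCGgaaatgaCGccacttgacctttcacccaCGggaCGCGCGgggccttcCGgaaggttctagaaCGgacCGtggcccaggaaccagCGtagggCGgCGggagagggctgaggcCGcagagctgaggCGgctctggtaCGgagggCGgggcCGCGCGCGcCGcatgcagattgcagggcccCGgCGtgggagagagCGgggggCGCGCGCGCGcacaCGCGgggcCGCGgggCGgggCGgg
H3f3a, chr1:180813556-180813855, minus strand: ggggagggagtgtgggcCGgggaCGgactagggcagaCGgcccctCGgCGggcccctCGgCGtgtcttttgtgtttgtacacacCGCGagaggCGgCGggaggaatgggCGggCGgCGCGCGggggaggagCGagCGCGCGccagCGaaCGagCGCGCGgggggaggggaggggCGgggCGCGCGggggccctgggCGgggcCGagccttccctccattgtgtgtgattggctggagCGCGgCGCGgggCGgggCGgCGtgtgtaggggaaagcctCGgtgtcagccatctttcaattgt

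These windows hold 23 CG dinucleotides for En1, 24 for Fbln1, 2 for Olfr287, 39 for Hspd1 and 39 for H3f3a. Over all 32851 RefSeq windows the median was 7. GGGCGG, the GC box, was found on either strand in 35.7% of all windows and TATAAA in 13.6%. Of the 5 printed windows, Fbln1, Hspd1 and H3f3a hold the GC box on either strand and none holds TATAAA. Another Fbln1 window under the same island, chr15:85205699-85205998, holds 12 CG and no GC box. On chromosome 1, 60 of 2014 windows were under H3K4me3 in Setd5+/- cells only and 30 in wild type only. How often this occurs over the windows of all chromosomes was not counted. The median number of CG was 6 in those of Setd5+/- cells only, 12.5 in those of wild type only, and 21 in the 821 windows under H3K4me3 in both. Chromosome 15, with 936 windows, had medians of 8 in 20 marked in Setd5+/- cells only, 7.5 in 6 marked in wild type only and 23 in 367 marked in both.

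En1, a homeodomain transcription factor of the midbrain and hindbrain, had the newly called H3K4me3 island with most reads on either chromosome. In wild type the gene lay inside a single H3K27me3 island of 37.6 kb at chr1:120590601-120628200 with 3155 reads, and had no H3K4me3 or H3K27ac island. In Setd5+/- cells no H3K27me3 island was called over it. Its start was covered instead by H3K4me3 at chr1:120601801-120604200 with 278 reads and its far end at chr1:120605401-120608800 with 232 reads. H3K27ac came with 26 and 41 reads in 2 islands. Fbln1, which encodes an extracellular matrix protein, went from no H3K4me3 island to 90 reads over 2.2 kb at chr15:85205601-85207800. An H3K4me1 island overlapped this stretch in both genotypes, at chr15:85206401-85208600 in wild type and chr15:85206401-85208800 in Setd5+/- cells. At the shared promoter of Hspd1 and Hspe1, which encode mitochondrial chaperonins, wild-type H3K4me3 islands of 364 and 348 reads flanked the window. Setd5+/- cells had 1 island of 1040 reads there. A window called only in Setd5+/- cells can therefore be a gap that closed: the windows of Fzd5 and Bcl2 also lay between 2 wild-type islands under 1 Setd5+/- island.

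Density was compared over islands that overlapped 1 to 1 between the genotypes. For each pair the log2 ratio of reads per kb, Setd5+/- over wild type, was centred on the median of the 16 reference autosomes. A relative log2 density of 0 thus means no difference from those autosomes. The intervals given cover 95% by the binomial order statistics of the median, and reflect the spread between islands, not between libraries.

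On chromosome 1, the shared islands of every mark were denser in Setd5+/- cells relative to the reference autosomes. H3K4me3 islands went from a median of 80 reads per kb in wild type to 107 in Setd5+/- cells over 1244 pairs, while the reference autosomes went from 91.7 to 95.8. The relative log2 density was 0.30 (0.27 to 0.32), and 78.1% of the pairs were above 0, against 53.3% over all autosomes. H3K36me3, over 320 pairs, went from 12.0 to 21.3 reads per kb, a relative log2 density of 0.34 (0.31 to 0.36). Its pairs were above 0 in 94.1%, against 54.5% over all autosomes. H3K36me2 gave 0.31 (0.28 to 0.32) over 206 pairs, with 95.1% above 0 against 63.8%. In these pairs the Setd5+/- islands had 437% of the wild-type length, against 111% on the reference autosomes. The 2 densities of a pair thus cover unlike stretches. The remaining marks were lower in relative density. H3K27ac gave 0.25 (0.22 to 0.26), H3K27me3 0.23 (0.20 to 0.27) and H3K4me1 0.21 (0.20 to 0.24). Between 76.1% and 77.5% of the pairs of these 3 marks were above 0. The medians themselves went down for H3K27ac, from 29.6 to 25.9 reads per kb, and for H3K4me1, from 29.4 to 23.3, where the reference autosomes went from 31.0 to 23.2 and from 30.0 to 20.6. For H3K27me3 they went from 26.3 to 28.2, and on the reference autosomes from 29.2 to 26.5. Over all autosomes these shares were 53.4% (H3K27ac), 54% (H3K27me3) and 54.5% (H3K4me1). In all 6 marks chromosome 1 had the highest median of the 19 autosomes.

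Relative to the reference autosomes, the shared islands of chromosome 15 were denser too, by a smaller amount. H3K4me3 islands went from 86.7 to 104.2 reads per kb over 770 pairs, a relative log2 density of 0.17 (0.15 to 0.20) with 73.1% of pairs above 0. H3K36me3 gave 0.18 (0.15 to 0.22) over 217 pairs, and H3K36me2 0.14 (0.10 to 0.19) over 109. The paired H3K36me2 islands of Setd5+/- cells had 204% of the wild-type length. H3K27me3 gave 0.13 (0.06 to 0.19), H3K27ac 0.12 (0.08 to 0.15) and H3K4me1 0.09 (0.07 to 0.12). In these 3 marks the medians themselves went down, from 27.9 to 27.4 reads per kb for H3K27me3, from 30.0 to 24.2 for H3K27ac and from 30.0 to 21.9 for H3K4me1. Chromosome 15 ranked 2 among the autosomes in 5 marks. For H3K27me3 it ranked 3, behind chromosome 16 at 0.15.

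The other autosomes lay close together. The highest of the 16 reference autosomes was between 0.02 and 0.05 in 5 marks. For H3K27me3 it was chromosome 16 at 0.15, followed by chromosome 8 at 0.08. The lowest was between −0.06 and −0.03 in each mark. Chromosome 4, left out of the reference by the same rule as 1 and 15, lay between 0.03 and 0.11. The 2 genotypes did not contribute alike. The median log2 density of shared H3K4me3 islands of chromosome 1, set against that of the reference autosomes in the same library, was −0.20 for wild type and 0.16 for Setd5+/- cells. For H3K36me3 the values were −0.01 and 0.35. Over all islands, shared or not, chromosome 1 gave −0.15 and −0.44 for H3K4me3, the latter the lowest of the 19 autosomes. It gave −0.02 and −0.05 for H3K27ac and −0.04 and −0.03 for H3K27me3. H3K4me1 gave 0.01 and 0.11, H3K36me2 0.01 and 0.20, and H3K36me3 −0.01 and 0.14. On chromosome 15 H3K4me3, H3K27ac and H3K27me3 were lower in Setd5+/- cells than in wild type, and the other marks higher.

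**Figure D1:**
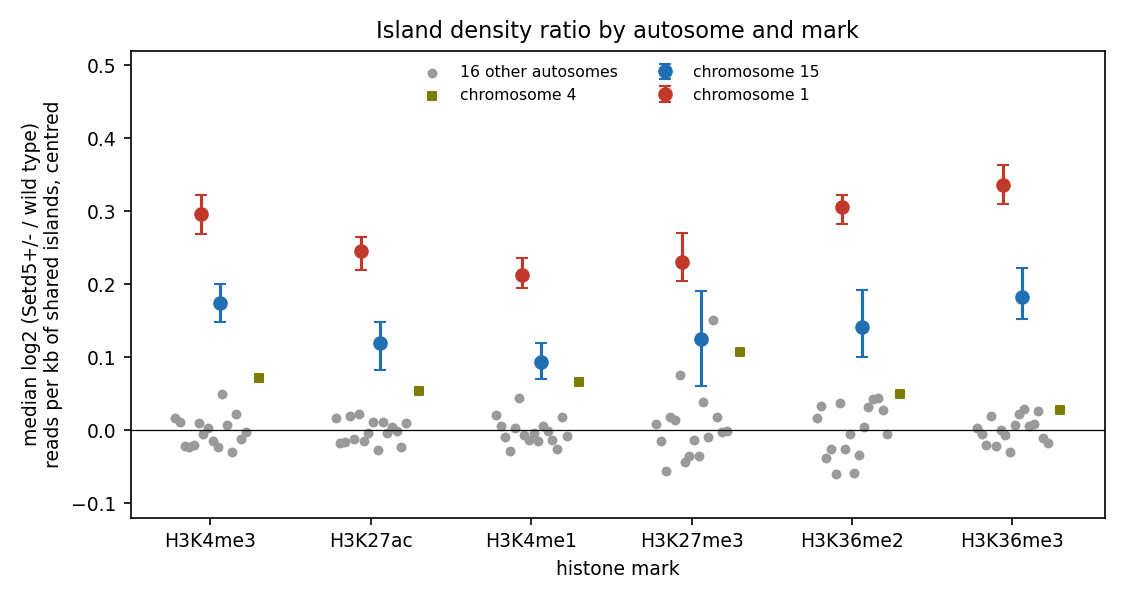
Relative log2 density of shared islands (y axis, Setd5+/- over wild type, centred on the 16 reference autosomes) by histone mark (x axis). Points are the medians of single autosomes, and bars on chromosomes 1 and 15 are 95% intervals of the median over islands. Chromosome 1 lies between 0.21 and 0.34 and chromosome 15 between 0.09 and 0.18.

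Islands of every density took part. Pairs were put in 3 classes of mean density, cut at equal numbers over the reference autosomes, and each class was centred on the reference islands of the same class. On chromosome 1 the relative log2 density of H3K4me3 was 0.21 in the lowest class, 0.36 in the middle class and 0.31 in the highest. For H3K36me3 the 3 values climbed from 0.22 through 0.29 to 0.40, while for H3K36me2 they were 0.31, over 9 pairs only, 0.33 and 0.30. On chromosome 15 H3K4me3 gave 0.08, 0.21 and 0.19, and H3K36me3 0.16, 0.14 and 0.24. All 36 values over both chromosomes and the 6 marks were above 0.

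H3K27me3 islands chosen for a high wild-type density were less dense in Setd5+/- cells on both chromosomes and on the reference autosomes. Pairs with at least 2 times the reference median of wild-type density, 58.3 reads per kb, went on the reference autosomes from 71.3 to 41.3 reads per kb over 142 pairs, a relative log2 density of −0.69. The 13 such pairs of chromosome 1 went from 63.8 to 48.4, a value of −0.36, and the 5 of chromosome 15 from 95.1 to 51.5, a value of −0.49. These values are centred on all reference islands, and choosing islands by a high wild-type value lowers the ratio of any set so chosen. Centred on reference islands of the same class of mean density, the highest class of H3K27me3 gave 0.34 on chromosome 1 and 0.14 on chromosome 15. The medians of that class went from 34.5 to 36.1 reads per kb on chromosome 1 and from 36.6 to 33.8 on chromosome 15. On the reference autosomes they went from 39.8 to 32.8. For pairs below 58.3 reads per kb in wild type the values were 0.24 over 436 pairs on chromosome 1, 0.13 over 180 on chromosome 15 and 0.02 on the reference autosomes.

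Position along the chromosome was examined in bins of 5 Mb with at least 5 pairs. On chromosome 1, which spans 40 bins, 185 of 189 bin medians over the 6 marks were above 0, or 97.9%. Over all autosomes 55.6% were above 0. The 4 exceptions were all H3K27me3. On chromosome 15, which spans 21 bins, 81 of 90 were above 0. A relative log2 density above 0.1 was reached by 37 of 38 bins of chromosome 1 for H3K4me3, where the autosomes had 20.7%. For H3K36me3 it was reached by 27 of 27, against 17.4%, and for H3K36me2 by 23 of 23, against 40.8%. H3K27ac had 31 of 34 such bins against 20.6%, H3K4me1 35 of 36 against 20.2%, and H3K27me3 23 of 31 against 33.3%. On chromosome 15 it was reached by 16 of 18 bins for H3K4me3, 13 of 13 for H3K36me3 and 5 of 6 for H3K36me2, with 11 of 17 for H3K27ac, 9 of 17 for H3K27me3 and 7 of 19 for H3K4me1.

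The bins of 1 chromosome varied about as much as bins elsewhere. For H3K36me3 the SD over bins was 0.06 on chromosome 1, 0.05 on chromosome 15 and 0.06 on the reference autosomes. For H3K4me3 it was 0.11, 0.06 and 0.09, and for H3K27me3 0.18, 0.17 and 0.18. The lowest H3K4me3 bin of chromosome 1 was the first, at 0.02 with 5 pairs, and the highest was bin 21, at 0.60 and also with 5 pairs. With each chromosome cut into 3 equal stretches, H3K36me3 gave 0.35, 0.34 and 0.34 from the centromere outward on chromosome 1, and 0.22, 0.19 and 0.18 on chromosome 15. H3K36me2 gave 0.30, 0.31 and 0.31 on chromosome 1. H3K4me3 was lowest in the first stretch of both: 0.23, 0.33 and 0.32 on chromosome 1, and 0.13, 0.20 and 0.19 on chromosome 15. H3K27me3 ran the other way, with 0.17 in the last stretch of chromosome 1 and 0.27 in the first. No stretch of either chromosome had a median at or below 0 in any mark.

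**Figure D2:**
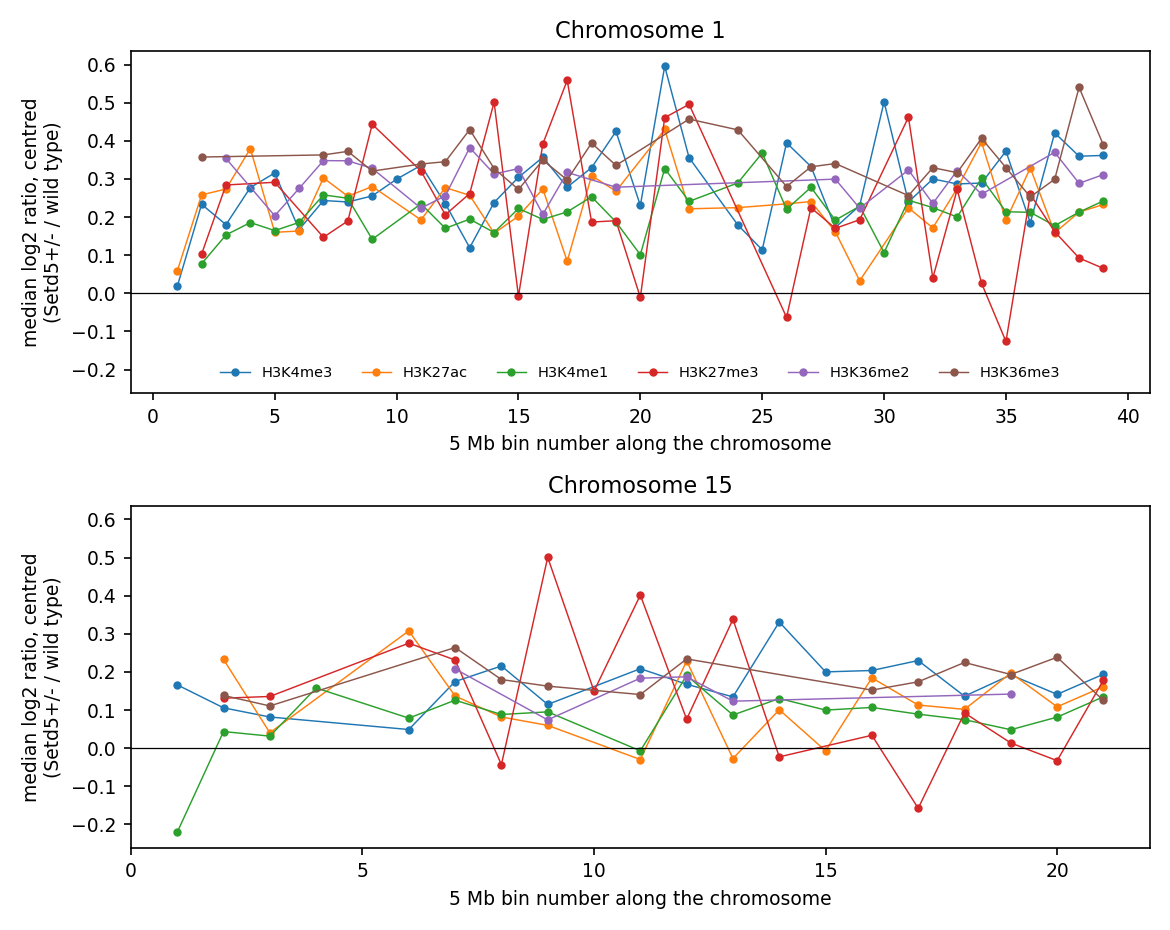
Median relative log2 density (y axis) in bins of 5 Mb (x axis, bin number) on chromosomes 1 and 15, 1 line per mark, for bins with at least 5 shared islands. Lines join bins and skip those with fewer islands. Of the bin medians, 185 of 189 on chromosome 1 and 81 of 90 on chromosome 15 lie above 0.

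A relative density can be written as the percent of cells that would carry 1 extra copy of a chromosome whose other cells have 2, if copy number alone set the reads. This is 2 times the excess of the relative ratio over 1, in percent. It is a conversion and not a measured copy number. On chromosome 1 the median over marks was 41.3%. H3K36me3 gave 52.6%, H3K36me2 47.3% and H3K4me3 45.5%, while H3K27ac gave 37.1%, H3K27me3 34.6% and H3K4me1 31.7%. Chromosome 15 had a median of 19.4%, with 27.1% from H3K36me3, 25.8% from H3K4me3, 20.7% from H3K36me2, 18.1% from H3K27me3, 17.3% from H3K27ac and 13.4% from H3K4me1. The value of chromosome 1 was 1.76 to 2.37 times that of chromosome 15. Within a chromosome the marks did not give 1 figure. On chromosome 1 the interval of H3K4me1 was 29.0% to 35.5% and that of H3K36me3 47.8% to 57.4%. Both reflect the spread between islands of 1 library per genotype, so whether the marks differ was not tested. With at least 50 reads in each genotype, the relative log2 density of the 6 marks ran from 0.27 to 0.34 on chromosome 1. On chromosome 15 it ran from 0.12 to 0.20. Whether a chromosome was gained was not tested, since inputs were not analysed here.

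More islands were also called in Setd5+/- cells on these chromosomes. An island was taken as newly called when no wild-type island of the same mark overlapped it. For H3K27ac, 1396 of 2448 Setd5+/- islands of chromosome 1 were newly called, or 57.0% (55.1% to 59.0%, Wilson interval for counting error only). Over all chromosomes the share was 28.7%, and on the reference autosomes 21.7%. For H3K36me2 the count was 1242 of 1559, or 79.7%, against 64.5% over all and 48.0% on the reference autosomes. For H3K27me3 it was 2177 of 2927, or 74.4%, against 46.8% and 43.1%. H3K4me1 gave 44.6% against 25.2% and 19.4%, H3K36me3 43.5% against 19.6% and 15.8%, and H3K4me3 29.6% against 13.9% and 12.0%. The shares of chromosome 15 lay between those of chromosome 1 and of the reference autosomes in every mark. They ran from 19.7% (H3K4me3) through 32.0% (H3K4me1), 34.0% (H3K36me3), 40.1% (H3K27ac) and 60.6% (H3K27me3) to 66.9% (H3K36me2).

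Smaller shares of the wild-type islands were missing there, although a share lost depends on the threshold of the list it is sought in. Of 590 wild-type H3K36me3 islands of chromosome 1, 3 had no Setd5+/- island, or 0.51%, against 10.8% over all chromosomes and 11.6% on the reference autosomes. For H3K36me2, 20 of 461 were lost, or 4.3%, against 61.9% and 72.8%. Chromosome 15 had shares of 3.8% for H3K36me3 and 8.1% for H3K36me2. H3K4me1, which lost 49.6% of its wild-type islands over all chromosomes, lost 17.9% on chromosome 1 and 29.6% on chromosome 15. H3K27me3 lost 20.2% and 34.7% against 57.1%, and H3K27ac 12.7% and 18.9% against 30.9%. H3K4me3 differed least, with 9.0% and 7.4% against 11.5%.

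**Figure D3:**
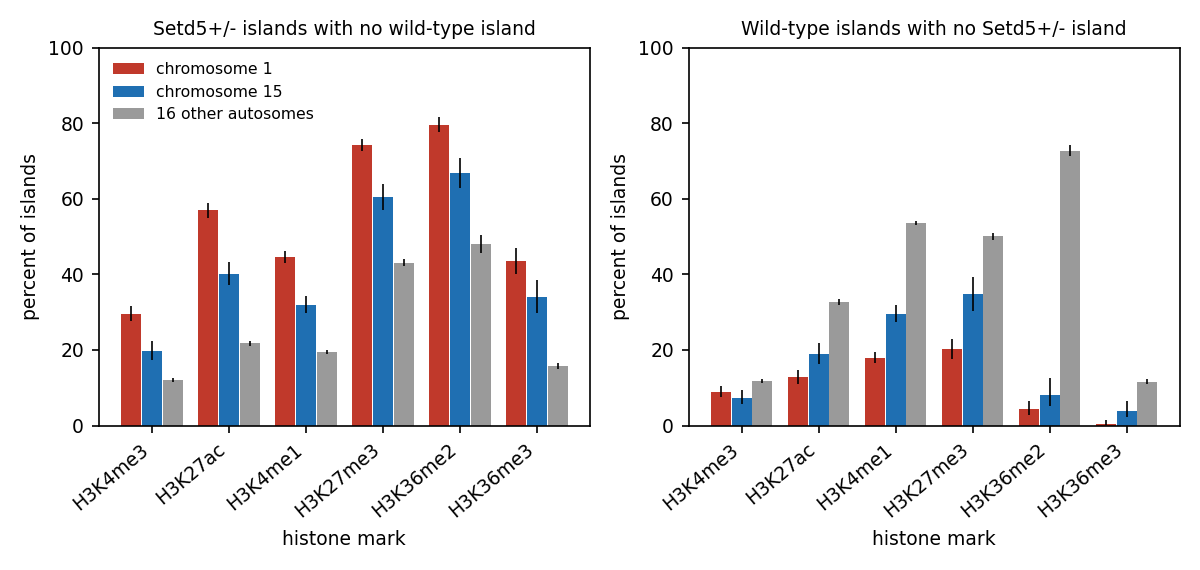
Percent of Setd5+/- islands with no wild-type island (left) and of wild-type islands with no Setd5+/- island (right) by mark (x axis), on chromosome 1, chromosome 15 and the 16 reference autosomes. Bars start at 0 and error bars are 95% Wilson intervals for counting error. New islands are most frequent on chromosome 1 in all 6 marks, from 29.6% for H3K4me3 to 79.7% for H3K36me2.

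On chromosome 1 new islands were less dense than shared ones in each mark. For H3K36me2 the medians were close, 20.3 against 21.7 reads per kb. Over all chromosomes new H3K36me2 islands were the denser ones, with 19.3 against 18.9. Newly called H3K4me3 islands of chromosome 1 had a median of 33.8 reads per kb, against 108 in those shared with wild type, and H3K36me3 had 15.2 against 21.0. Their place also differed. Of 541 newly called H3K4me3 islands on chromosome 1, 6.1% lay at a gene end, against 50.6% of 1286 shared ones, and 66.0% lay on a wild-type H3K4me1 island. On the reference autosomes these shares of the newly called islands were 7.7% and 61.0%, and shared islands of chromosome 1 lay on wild-type H3K4me1 in 65.1%. Of newly called H3K27ac, 188 of 1396 islands were at a gene end on chromosome 1 and 712 of 2737 on the reference autosomes.

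The newly called islands with most reads lay over named genes in several marks. For H3K27ac it was a 6.2 kb island with 533 reads at chr1:183295401-183301600, over the ends of Brox and Aida, which are neighbours. For H3K27me3 on chromosome 15 it was a 15.8 kb island with 957 reads at chr15:44753601-44769400 over Sybu, which encodes a protein of axonal transport. On chromosome 1, 3 new H3K27me3 islands of 641 to 681 reads lay between chr1:80950601 and chr1:81486600 in and beside Nyap2. For H3K36me3 the new island with most reads was 64 kb long with 1136 reads at chr1:187213601-187277600, over Spata17 and Gpatch2. For H3K4me1 on chromosome 15 it lay in Trps1, a GATA-type repressor, with 107 reads.

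H3K36me2 differed most in covered length. In wild type its islands covered 6.96 Mb of chromosome 1, 3.6% of the span, with a mean width of 15.1 kb. In Setd5+/- cells they covered 63.1 Mb, 32.3% of the span, with a mean width of 40.5 kb. Chromosome 15 followed: its covered length went from 3.50 to 13.7 Mb, or 3.4% to 13.2%. On the reference autosomes it went the other way, from 55.0 to 33.6 Mb, or 2.7% to 1.7%. Relative to those autosomes the covered length was 14.8 times that of wild type on chromosome 1 and 6.41 times on chromosome 15. Chromosome 1 held 10.0% of the H3K36me2 island reads of wild type and 54.6% of those of Setd5+/- cells. The mean density within islands went from 15.5 to 20.9 reads per kb on chromosome 1 and from 15.5 to 18.3 on the reference autosomes.

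Every one of the 40 bins of chromosome 1 had more H3K36me2 coverage in Setd5+/- cells, and so had 20 of 21 bins of chromosome 15. The 13th bin of chromosome 1 was covered most, with 3.40 Mb in Setd5+/- cells and 0.67 Mb in wild type. In the 10th, coverage went from 0 to 0.11 Mb. The 3 new islands with most reads on chromosome 1 spanned 208.8, 198.4 and 187.2 kb, the first over Rgs7, a regulator of G protein signalling, at chr1:175391201-175600000, and the other two over no gene. The first on chromosome 15 was 78.4 kb long, in the peptidase gene Cpq.

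**Figure D4:**
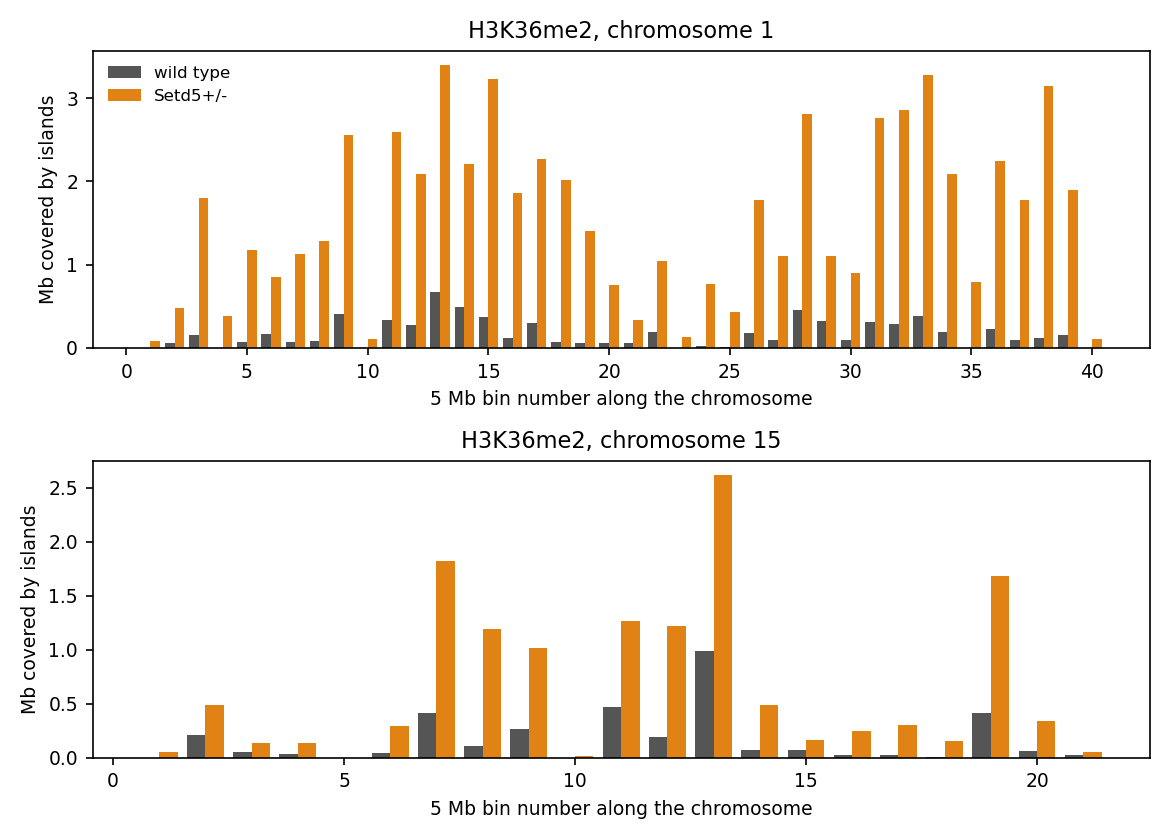
Length covered by H3K36me2 islands (y axis, Mb) in each 5 Mb bin (x axis, bin number) of chromosomes 1 and 15, in wild-type and Setd5+/- cells. Coverage is higher in Setd5+/- cells in 40 of 40 bins of chromosome 1 and 20 of 21 of chromosome 15, and reaches 3.40 Mb in bin 13 of chromosome 1.

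The other marks also covered more of both chromosomes, relative to the reference autosomes. On chromosome 1 the ratio was highest for H3K27me3, 3.01, then 2.75 for H3K4me1, 2.55 for H3K27ac, 1.79 for H3K36me3 and 1.39 for H3K4me3. Chromosome 15 gave 1.73, 1.85, 1.64, 1.41 and 1.16. The order of the marks in covered length was not that in density, where H3K36me3 and H3K36me2 were highest and H3K4me1 lowest.

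Newly called H3K36me2 on chromosome 1 had a median width of 23.2 kb and lay over genes in 56.7% of 1242 islands, with 47.9% of its length in genes, where genes make up 39.9% of the span. It overlapped H3K36me3 of Setd5+/- cells in 31.6% of islands (29.1% to 34.3%), against 6.1% (4.7% to 8.0%) of 833 newly called islands on the reference autosomes. Chromosome 15 had 19.2% (15.4% to 23.6%) of 355 islands. It overlapped Setd5+/- H3K27me3 in 10.7% of islands on chromosome 1, 2.3% on chromosome 15 and 0.6% on the reference autosomes. Wider islands meet others more often, and the median width was 16.8 kb on the reference autosomes. Shared H3K36me2 islands of Setd5+/- cells on chromosome 1, with a median width of 63.2 kb, lay over genes in 56.5%. They overlapped Setd5+/- H3K36me3 in 37.9% and Setd5+/- H3K27me3 in 15.8%. Wild-type H3K36me2 islands of chromosome 1 overlapped Setd5+/- H3K36me3 in 23.9%. These overlaps were thus not particular to the new islands. SETD5-V5 islands of wild-type cells lay under 14.3% of the new islands of chromosome 1 and 6.8% of those of chromosome 15. On the reference autosomes they lay under 3.4% of the new islands. For shared islands of Setd5+/- cells the shares were 18.6% on chromosome 1 and 9.7% on chromosome 15.

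Genes followed the islands. A gene was counted as marked when an island lay within 1 kb of either annotated end, for 1204 protein-coding genes of chromosome 1 and 776 of chromosome 15. H3K36me2 was at the end of 417 chromosome 1 genes in Setd5+/- cells only and of 3 in wild type only, against 2.84% and 0.786% of all genes. H3K36me3 was marked in Setd5+/- cells only at 167 genes and in wild type only at 13, against 5.09% and 4.96% of all genes. For H3K27ac the counts were 138 and 8, against 4.35% and 6.16%. For H3K4me1 they were 151 and 79, against 3.23% and 20.7%, and for H3K27me3 87 and 20, against 1.94% and 3.76%. For H3K4me3, 25 genes were marked in Setd5+/- cells only and 24 in wild type only. These are 2.08% and 1.99% of the genes of chromosome 1, against 0.955% and 2.38% of all genes. With islands required over the end base itself, these 2 counts were 56 and 19.

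For chromosome 15 the counts in Setd5+/- cells only and in wild type only were 76 and 21 for H3K36me3, 76 and 13 for H3K27ac and 42 and 5 for H3K36me2. They were 10 and 13 for H3K4me3, or 1.29% and 1.68% of its genes, and 20 and 26 for H3K27me3, or 2.58% and 3.35%, near the shares of all genes given above. For H3K4me1 they were 56 and 128, or 7.22% and 16.5%, where the reference autosomes had 2.36% and 23.5%. In these 3 marks more genes were marked in wild type only, as over all genes. On chromosome 1 H3K27me3 and H3K4me1 had more in Setd5+/- cells only, and H3K4me3 had 25 and 24. For the first 3 marks the shares of chromosome 15 genes in Setd5+/- cells only were 9.79%, 9.79% and 5.41%, against 5.09%, 4.35% and 2.84% of all genes.

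Gene bodies showed the same in H3K36me3. Of 1047 chromosome 1 genes of at least 5 kb, 135 had 25% or more of the body covered in Setd5+/- cells only and 1 in wild type only, against 4.79% and 3.19% of all genes. On chromosome 15 it was 65 and 5 of 642. Vxn, which promotes neuronal differentiation, Actr1b, a dynactin subunit, Chml, a Rab escort protein, and Rab29, a small GTPase, went from 0% to 100% of the body. Their islands had 231 to 618 reads. On chromosome 15 Cbx6, a Polycomb subunit, went from 0% to 93.0%, and Yaf2, which binds the transcription factor YY1, from 4.8% to 87.7%. Some genes went the other way. Tst, a mitochondrial sulfur transferase, went from 100% to 0% and Myc, the growth regulator, from 100% to 31.1%, although the H3K36me3 reads of the island at Myc were 95 in wild type and 179 in Setd5+/- cells. Pea15a on chromosome 1 went from 96.0% to 64.2%.

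H3K36me2 covered 25% or more of the body of 373 chromosome 1 genes in Setd5+/- cells only and of 5 in wild type only, against 3.33% and 0.92% of all genes. Mfsd6, Irs1, the insulin receptor substrate, Tmem182 and Il1rl2, an interleukin receptor, went from 0% to 100%. The island over Mfsd6 had 2782 reads. Chromosome 15 had 57 and 2. Sdc2, a heparan sulfate proteoglycan, went from 11.2% to 88.0% and Rbfox2, a splicing regulator of neurons, from 6.3% to 81.6%. Cbx5, which encodes the heterochromatin protein HP1 alpha, went from 34.7% to 0%.

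At gene ends, the genes with the longest new H3K27ac on chromosome 1 included Igfbp5, a binding protein of insulin-like growth factors, with 0 kb in wild type and 10.9 kb and 247 reads within 5 kb of an end in Setd5+/- cells. Gpr55, a lipid receptor, went from 0.58 to 9.38 kb. Inhbb, the activin subunit, gained H3K4me1 from 1.6 to 8.3 kb. New H3K27me3 at the ends of Ugt1a10, a glucuronosyltransferase, and Rgs21 came to 13.4 and 9.7 kb. Loss of H3K27me3 was longest at En1, 15.5 kb, and then at Tcf24, 8.8 kb. On chromosome 15 Celsr1, a cadherin of planar cell polarity, gained H3K4me3 with 74 reads over 2.2 kb, and Ago2, the slicer of RNA interference, gained H3K27ac with 92 reads. Tuba1a, the neuronal alpha-tubulin, lost H3K4me1 at its ends, where its islands within 5 kb shortened from 5.6 to 2.0 kb.

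Lists of developmental, signalling, cell cycle, cytoskeletal and chromatin genes were followed by chromosome, and 56 of 56 genes on chromosome 1 and 59 of 59 on chromosome 15 were found. For H3K4me3, 34 of the 38 chromosome 1 genes with a shared island were above 0, against 78.1% of all pairs of the chromosome. The median relative log2 density was 0.38, against 0.30. Of 22 developmental transcription factors, 10 had a shared island, and these 10 were above 0. Among them Hlx went from 155 to 229 reads per kb, and Pou3f3, a factor of upper-layer neurons, from 130 to 173. Cxcr4, the chemokine receptor, went from 169 to 248. Wnt10a, a Wnt ligand, had the highest relative log2 density, 1.34, from 31.7 to 84.2. Nek2, a centrosomal kinase, had the lowest, −0.29, from 158 to 136. Chromosome 15 had a list median of 0.10 over 30 genes, with 21 above 0, against 0.17 and 73.1% over all pairs. Osr2, a factor of palate and limb, was highest at 0.66, and Sp7, a factor of bone, was lowest at −1.48, from 76.7 to 29.0. Slc1a3, the glial glutamate transporter and the marker of radial glia on this chromosome, lay at −0.08.

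H3K36me3 was denser over the same lists in 22 of 23 chromosome 1 genes and 17 of 18 chromosome 15 genes with a shared island. Over all pairs 94.1% and 85.3% were above 0. The median was 0.42 on chromosome 1 and 0.21 on chromosome 15, against 0.34 and 0.18 over all pairs. Cenpf, a kinetochore protein, went from 15.4 to 32.6 reads per kb and H3f3a, which encodes histone H3.3, from 18.3 to 36.9. At Inhbb the relative log2 density was −0.06. On chromosome 15 Ep300, the histone acetyltransferase, went from 16.3 to 25.8 and Slc1a3 from 16.2 to 26.6. H3K36me2 was above 0 in 10 of 10 and 4 of 5 genes, against 95.1% and 83.5% of all pairs.

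H3K27ac newly reached the ends of 14 of the 56 chromosome 1 list genes and left none. Over the whole chromosome it was new at 11.5% of genes and lost at 0.66%, and over all genes at 4.35% and 6.16%. They were En1, Lhx4, Sox13, Prrx1, Nrp2, Fzd5, Inhbb, Ddr2, Mcm6, Kif14, Hdac4, Kdm5b, Smyd2 and Smyd3. None had a wild-type island at an end, and their Setd5+/- islands had 26 to 95 reads. A gene end without an island may still hold reads below the threshold of the list. On chromosome 15, 2 of 59 gained it, Celsr1 and Maff, and 1, Dhh, lost it, where 9.8% of the genes of the chromosome gained it and 1.7% lost it.

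The shared H3K27me3 island was less dense in Setd5+/- cells, relative to all reference islands, in 4 of 4 chromosome 1 genes and 5 of 5 chromosome 15 genes. Atf3, a stress-induced factor, went from 70.3 to 48.4 reads per kb, and Ihh, a hedgehog ligand, from 59.3 to 40.6. Hoxc12 and Hoxc13 share an island that went from 95.1 to 51.5, a relative log2 density of −0.72. Osr2 went from 95.2 to 63.5, and Wnt1 from 73.8 to 48.9. Of these 9 genes, 6 lie in the H3K27me3 islands chosen above for a high wild-type density, which were at −0.69 on the reference autosomes. That choice by itself lowers the ratio.

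SETD5-V5 is a readout that the genotype contrast did not use, from wild-type cells alone. Chromosome 1 held 579 of its 6143 islands and chromosome 15 held 308, or 2.97 and 2.96 islands per Mb, against 2.23 on the reference autosomes. They covered 6.9% and 6.0% of the span, against 4.2%. Wild-type H3K36me3, the mark that SETD5-V5 most often overlapped, covered 7.6%, 7.3% and 7.6% of the same spans. SETD5-V5 thus covered 0.90 times the length of wild-type H3K36me3 on chromosome 1 and 0.82 times on chromosome 15. Chromosome 4 had 0.80, and the 16 reference autosomes lay between 0.46 and 0.67.

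The same 3 chromosomes were highest in density. Over 311 pairs of SETD5-V5 and wild-type H3K36me3 islands on chromosome 1, the relative log2 density of SETD5-V5 over H3K36me3 was 0.14 (0.11 to 0.16), with 80.7% of the pairs above 0 against 54.8% over all autosomes. On chromosome 15 it was 0.11 (0.05 to 0.14) over 145 pairs, with 72.4% above 0. These were the highest 2 of 19 autosomes, followed by chromosome 4 at 0.05 (0.03 to 0.08). The reference autosomes lay between −0.04 and 0.03. In bins of 5 Mb, 26 of 26 on chromosome 1 and 12 of 12 on chromosome 15 were above 0, against 56.1% over all autosomes. Wild-type H3K36me3 is the denominator both here and in the genotype comparison, so the 2 comparisons are not independent. By themselves, SETD5-V5 islands of chromosomes 1 and 15 had the highest median densities of the 19 autosomes, 0.07 and 0.04 above the reference on the log2 scale, where the reference autosomes reached 0.03. Reads summed over covered length gave another order, with 20.1 reads per kb on chromosome 1, 18.96 on chromosome 15 and 20.5 on the reference autosomes. Wild-type H3K36me3 ranked 12 and 15 by the same measure, at −0.01 on both. The tagged cells are labelled wild type, and how they relate to the wild-type culture of the histone marks is not given in the sources used here.

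**Figure D5:**
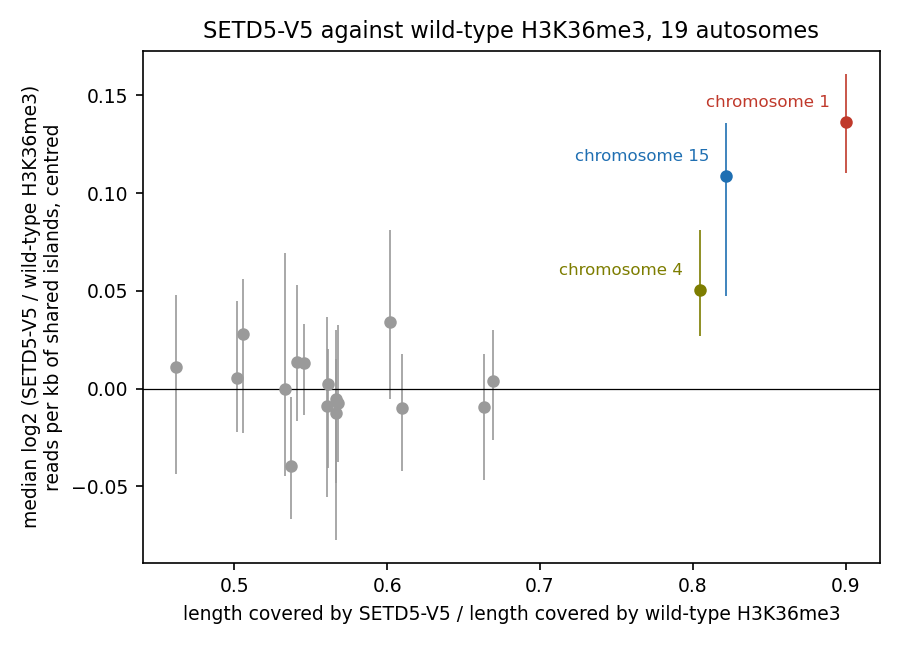
Ratio of the length covered by SETD5-V5 to that covered by wild-type H3K36me3 (x axis) and relative log2 density of their shared islands (y axis, bars are 95% intervals of the median over islands) for 19 autosomes. Grey points are the 16 reference autosomes. Chromosome 1 is at 0.90 and 0.14, and chromosome 15 at 0.82 and 0.11.

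More of the chromosome 1 islands of SETD5-V5 lay outside wild-type H3K36me3. The share on it was 76.9% (73.3% to 80.1%) on chromosome 1 and 76.0% (70.9% to 80.4%) on chromosome 15, against 86.1% (85.1% to 87.1%) on the reference autosomes. With H3K36me3 of Setd5+/- cells the shares were 82.9%, 82.1% and 86.4%. In the other direction, 71.2% of wild-type H3K36me3 islands on chromosome 1 and 66.6% on chromosome 15 carried SETD5-V5, against 50.8%. Of the 364 newly called H3K36me3 islands of chromosome 1, 7.1% carried SETD5-V5, as did 7.1% of the 1166 on the reference autosomes. Wild-type H3K27me3 was met by 9 SETD5-V5 islands of chromosome 1, or 1.6%, and by 1 of chromosome 15, or 0.32%, against 1.8% on the reference autosomes and 3.4% over all islands.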

How the data were processed

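ChIP-seq island lists of 6 histone marks in wild-type and Setd5+/- mouse neural stem cells and of SETD5-V5 were analysed, with 1 library per group. Per the submitters' processing notes the tools were FastQC, Bowtie2 2.2.3 and SICER 1.1, and the build was GRCm38 (mm10). Settings are given in the headers of 5 lists and in none of 8. Each island carries a count, taken from its values as the reads in the island, as deposited by the authors, and the lists are not scaled to depth. From these, reads per kb, overlaps (at least 1 base), covered length and bins of 5 Mb were computed in Python 3.11.15 (scipy 1.17.1, pandas 2.3.3, numpy 2.4.6). Figures used matplotlib 3.10.9. The steps were tested on simulated data.

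Islands were paired where each overlapped 1 island only. The order-statistic and Wilson intervals are at 95%. Genes were 21887 protein-coding RefSeq genes of GRCm38.p6. That table has no strand, so a gene end means either end. Promoter windows, which have strand, matched 988 of 1204 genes on chromosome 1 and 422 of 776 on chromosome 15. The members, gene lists and alternatives were chosen with earlier results of these data known. Genes were named by rule: on each chromosome, for H3K4me3, H3K27ac, H3K4me1 and H3K27me3 the 5 genes marked in Setd5+/- only and up to 3 in wild type only ranked by island length within 5 kb of an end, and for H3K36me2 and H3K36me3 the 5 largest rises and up to 3 falls in body coverage. Added to these were the 3 new islands with most reads and the listed genes. Genes with printed promoters, and Fzd5 and Bcl2 beside them, were chosen after their values were seen. Of the genes this rule names, those not mentioned in the text are not reported here.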

Additional observations from a re-analysis of the deposited data

How the results depend on the processing

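With 1 library per group, no value has a replicate error, and a difference between cultures cannot be told from one between genotypes. New islands, covered length and gene counts depend on the threshold of each list, which is not stated for 8 lists. No paired analysis was possible because no result comes from a test and each group has 1 library. Relative density was above 0 in 54 of 54 mark and setting combinations on each chromosome, from 0.18 to 0.44 on chromosome 1 and from 0.05 to 0.24 on chromosome 15. Over these settings no relative density changed sign. Island counts, gene counts and covered lengths were compared by size only. Densities over all islands, and SETD5-V5 density by itself, in some cases changed side of the reference with the measure, as given above. For the other values given below the cause of the shift was not tested.

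Pairs with widths within 20% gave medians over marks of 0.36 on chromosome 1 and 0.17 on chromosome 15, and a baseline of all autosomes 0.089 on chromosome 15. Limiting islands to those at or above the median density of their list left fewer new ones. On chromosome 1 they were 135 for H3K4me3, 592 for H3K27ac and 1241 for H3K27me3. On chromosome 15 they were 72 for H3K4me3, 210 for H3K27ac, 269 for H3K27me3, 198 for H3K36me2 and 102 for H3K36me3. Islands of at least 50 reads left 728 and 138 for H3K27me3 on chromosomes 1 and 15, 554 and 143 for H3K27ac, and 513 and 100 for H3K4me1. The relative covered length became 4.20 for H3K4me1 on chromosome 1 with at least 50 reads, and 84.5 and 23.2 for H3K36me2 on chromosomes 1 and 15 with denser islands.

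Genes marked at an end in Setd5+/- only changed with the window. Over the end base they were 56 and 25 for H3K4me3, 87 and 33 for H3K4me1 and 57 and 11 for H3K27me3 on chromosomes 1 and 15, and 117 for H3K27ac on chromosome 15. Within 5 kb they were 131 and 40 for H3K27me3, and on chromosome 15 also 17 for H3K4me3 and 70 for H3K36me2. With denser islands they were 59 and 34 for H3K4me3 and, on chromosome 15, 11 for H3K36me2. The next alternatives were chosen after seeing the data. Promoter windows gave 99 and 18 for H3K4me1, 32 and 3 for H3K27me3, 221 and 11 for H3K36me2 and 64 and 9 for H3K36me3. SETD5-V5 over H3K36me3 was 0.18 and 0.16 with widths within 20%, and SETD5-V5 density alone 0.066 and 0.040. Chosen earlier, a rule of at least 50% covered put 73.1% of chromosome 1 SETD5-V5 islands on H3K36me3, and denser islands 66.8%. At 50% covered, 20.3% and 10.4% of new H3K36me2 islands lay on Setd5+/- H3K36me3.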
